A study of Homo sapiens with 2 samples.

Results

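The HOX genes of the HOXA and HOXB clusters and the homeodomain cofactors that bind DNA with their proteins were read from 2 Agilent one-colour arrays of SBC-3, a cell line of small cell lung cancer (SCLC) that grows attached. The members were a list of 29 genes (10 HOXA genes, 10 HOXB genes and 9 cofactors of the PBX, MEIS, PKNOX and TGIF families), and a probe belonged to a member when its RefSeq accession matched that gene. Of the 29 genes, 28 were found, on 32 of the 42402 probes measured on both arrays and on 53 spots of each array. PKNOX2 had no matched probe and was not analysed here. The cells had been transfected with #1 siHOTAIR, an siRNA against the long noncoding RNA HOTAIR, or with siGFP, the control siRNA against green fluorescent protein. Both cultures were of the same line and both were transfected, and untransfected cells were not analysed here. They are called the siHOTAIR culture and the siGFP culture here, and where a pair of signals is given the siHOTAIR culture comes first. There was 1 array per condition, so no P-value was computed, and the siRNA cannot be told apart from the culture and the array.

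HOX genes encode transcription factors that give cells their position along the body axis. They lie side by side in clusters, and in the embryo their order on the chromosome follows the order in which they are switched on from head to tail. HOX proteins bind short and similar sites and gain specificity by binding together with PBX and with MEIS or PKNOX proteins. These partners belong to the TALE class of homeodomain proteins, named for an extended loop in the homeodomain, and TGIF1, of the same class, is known as a repressor of transcription. HOTAIR is transcribed from another cluster, HOXC, and is known for binding chromatin-modifying complexes and for repressing genes of the HOXD cluster, so the comparison asks what was measured for the clusters other than these when HOTAIR was depleted.

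The 250 bases upstream of the start of HOXA2 and of HOXB1 are shown because HOXA2 was the only member measured at 2-fold or more on both arrays, whereas HOXB1 was not detected, and both hold the letters of a composite HOX-PBX site. They are RefSeq sequences of GRCh38.p14, 5′ to 3′ on the strand of the gene, at chr7:27102684-27102933 and chr17:48531012-48531261, both on the minus strand. Capitals mark matches to TGATNNAT (HOX-PBX) or to TGACAG (MEIS and TGIF) on either strand, and no overlapping matches of both motifs were found in these sequences.
HOXA2: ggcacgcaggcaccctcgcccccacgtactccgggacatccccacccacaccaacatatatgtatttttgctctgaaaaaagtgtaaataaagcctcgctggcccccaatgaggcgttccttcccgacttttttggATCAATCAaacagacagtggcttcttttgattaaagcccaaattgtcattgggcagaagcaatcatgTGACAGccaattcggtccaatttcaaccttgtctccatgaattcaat
HOXB1: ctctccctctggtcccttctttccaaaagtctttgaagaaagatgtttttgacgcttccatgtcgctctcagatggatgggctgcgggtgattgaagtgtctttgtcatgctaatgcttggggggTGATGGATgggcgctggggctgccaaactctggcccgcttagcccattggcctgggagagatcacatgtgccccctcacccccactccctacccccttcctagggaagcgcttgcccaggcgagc
The HOXA2 sequence held ATCAATCA, the reverse complement of the HOX-PBX letters, beginning 114 bases before the start, and TGACAG beginning 47 bases before it. The HOXB1 sequence held TGATGGAT beginning 125 bases before the start. Upstream sequences were found for 18 members, 33 sequences in all since some genes have several starts. They were those of 9 HOXA genes, of HOXB1 and of 8 cofactors, with 7 sequences each for HOXA3 and TGIF1, and the members without one were HOXA5, HOXB2 to HOXB9, HOXB13 and PKNOX2. TGATNNAT was in 5 of the 33 (15.2%) and in 6.47% of all 35116 sequences of this kind, and TGACAG was in 5 of the 33 (15.2%) and in 13.0% of all. The members with TGATNNAT were HOXA2, HOXB1, MEIS2 and TGIF1, and those with TGACAG were HOXA2, HOXA4, PBX3 and TGIF1. A match of letters is a description and not a binding site.

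The signal used was the processed signal of the scanner software, an intensity after background subtraction. Its 75th percentile was 650.3 for siHOTAIR and 629.9 for siGFP, and each log2 signal was set against that of its array. HOTAIR, the target, was read from 1 spot whose signal was 108 against 244, and its log2 ratio was -1.22. With normexp background correction the ratio was -0.76 and without background correction -0.73, both under 2-fold. The measurement SD of a ratio was taken from probes with 10 spots at a like signal, and it was 0.21 for HOTAIR. This SD covers the error within the arrays only. Of all probes well above background on both arrays, 42.2% had a ratio over 2 such SDs, so passing it does not separate a gene from the rest. Among neuroendocrine markers of SCLC, INSM1 and SYP were well above background on neither array, NEUROD1 and DLL3 were so on both, and CHGA and 1 of 3 NCAM1 probes in the siHOTAIR culture only. YAP1 was detected on both arrays and POU2F3 on neither. Of 3 epithelial markers, KRT8 and KRT18 were detected on both arrays by 1 of 2 probes each, and EPCAM, on 1 of 2 spots, in the siGFP culture only. The keratin probes on both arrays read 2825 against 2557 for KRT8 and 431 against 565 for KRT18. The other KRT8 probe read 31.5 against 54.0 and the other KRT18 probe 16.2 against 36.1, both well above background in the siGFP culture only. Of 6 markers of other cells, DCN, PECAM1 and VWF were at background, and the signals of the list, scaled to the 75th percentile, summed to 1.73 in the siHOTAIR culture and 0.98 in the siGFP culture, mostly by COL1A1, which read 832 against 414. CD68 read 88.3 against 55.4 and 1 of 4 PTPRC probes, on 1 spot, 106 against 61.0. The 3 probes of this list measured on both arrays were higher in the siHOTAIR culture. Their log2 ratios were 0.96 for COL1A1, 0.63 for CD68 and 0.75 for PTPRC. Another PTPRC probe went the other way, with 12.0 against 20.7, and was well above background on 1 of 2 spots in the siGFP culture only. The part of these marker differences in the HOX results was not tested.

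Most HOXA and HOXB genes were detected in SBC-3 cells, and most of their probes differed by less than 1.5-fold between the cultures. Of those measured on both arrays, 2 of 9 HOXA probes and 3 of 9 HOXB probes differed by at least 1.5-fold. This share was 12.5% over all probes measured on both arrays. Of the 32 probes, 26 cleared background in both cultures, 2 did so in 1 culture and 4 in neither. The probes on neither array were those of HOXA4, HOXA6, HOXB1 and MEIS1, with signals of 7.91 to 21.7 in the siHOTAIR culture and 6.01 to 17.6 in the siGFP culture, and no fold change is given for them. HOXA4 and HOXB4 are genes of the same paralogue group, as are HOXA6 and HOXB6, and in both pairs the HOXB gene was detected on both arrays.

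Of the 28 probes compared, 2 (HOXA2 and HOXA13) were at least 2-fold higher and 1 (HOXB7) was at least 2-fold lower in the siHOTAIR culture, 10.7% in all. Over the whole array 3.30% of the probes compared were at least 2-fold higher and 4.10% lower, 7.40% either way. HOXA13 and HOXB7 were near background and counted at their own signal, and only HOXA2 was at 2-fold on both arrays, 1 of 26 probes against 3.03% of all probes measured on both arrays. At 1.5-fold on both arrays, 4 probes were higher (HOXA2, 1 of HOXA9, HOXB3 and HOXB5) and 1 was lower (HOXB8), or 19.2% of the 26 against 12.5% of all such probes (6.63% higher and 5.84% lower). The ratio was above 0 for 20 of the 26 (76.9%), against 54.2% of all. The median log2 ratio of the 26 was 0.18, and it was 0.03 for all probes measured on both arrays. Scaling to the spike-in RNA moved the median of all probes measured on both arrays to 0.17. It raised the medians of the member probes compared as well, from 0.21 to 0.35 for HOXA. They went from 0.18 to 0.32 for HOXB and from 0.10 to 0.24 for the cofactors. No more can be read from these shares with 1 array per condition.

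**Figure D1:**
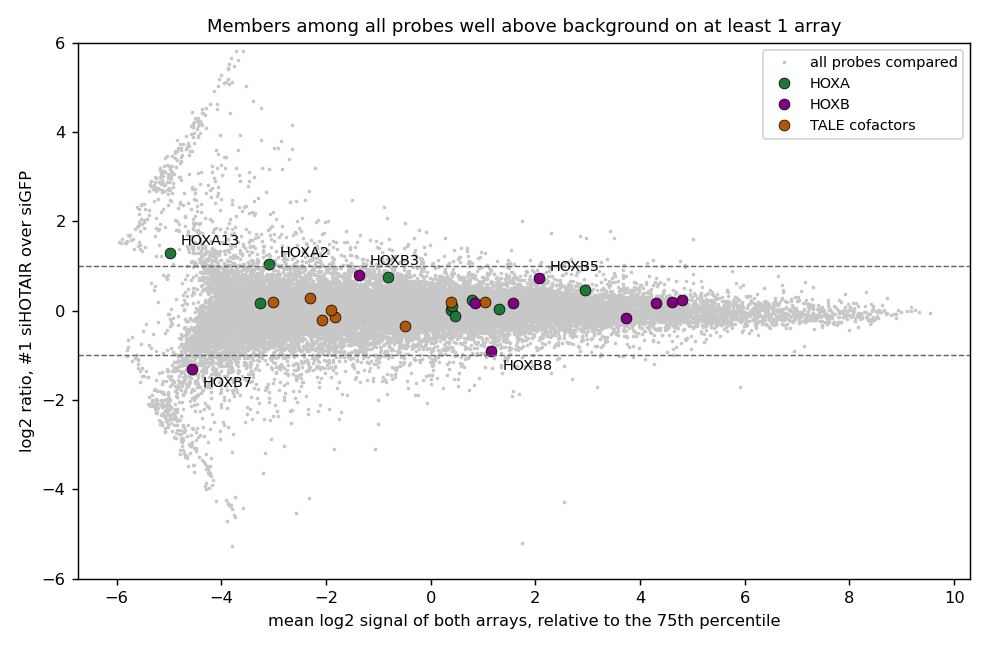
Log2 ratio of #1 siHOTAIR over siGFP (vertical axis) against the mean log2 signal of both arrays relative to the 75th percentile (horizontal axis) for the 24117 probes compared (grey) and the 28 member probes (coloured by family). Dashed lines mark 2-fold, and signals near background are drawn at their own level. HOXA13 and HOXB7 lie at the dim end where grey points spread widely, and HOXB8 and HOXB5 lie among brighter probes.

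In the HOXA cluster, HOXA2 and HOXA9 were higher in the siHOTAIR culture, and HOXA3, HOXA7 and HOXA11 were nearly the same on both arrays. HOXA2, which patterns the hindbrain and the branchial arches, had 1 spot, which read 110 in the siHOTAIR culture against 51.8. The log2 ratio was 1.04, a 2.05-fold difference, with a measurement SD of 0.34. The spot lay in row 86, among the first rows of the array, which were left out in one of the other settings, and HOXA2 had no second spot. Without background correction its log2 ratio was 0.48.
HOXA3, a gene of pharyngeal organ development, had 1 spot, which read 1616 against 1528, a log2 ratio of 0.04. HOXA5, a gene of lung and airway development, had spots of 58.5 and 90.3 in the siHOTAIR culture against 58.8 and 65.3 in the siGFP culture. The spots of the 2 arrays overlapped, and the log2 ratio of 0.18 was within the measurement SD of 0.24. HOXA7, a gene of the trunk skeleton, had spots of 838 and 864 against 801 and 839, which overlapped too, with a log2 ratio of 0.01.

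HOXA9, a regulator of blood progenitors and a driver of leukaemia, was read by 2 probes for the same transcript. The first had spots of 460 and 506 in the siHOTAIR culture against 293 and 260 in the siGFP culture, with no overlap. Its log2 ratio was 0.76 with a measurement SD of 0.10. The other had 1 spot of 1225 against 1005, a log2 ratio of 0.24 with an SD of 0.09. Both probes were higher, but their ratios differed by 0.52, which is 3.88 times the SD of that difference.
HOXA10, a gene of uterine and blood development, also had 2 probes that differed in size. One had spots of 874 and 905 against 793 and 813 (log2 ratio 0.10), and the other had 1 spot of 5865 against 4143 (log2 ratio 0.46). A readthrough transcript, HOXA10-HOXA9, is annotated across both genes, and its share of these signals cannot be told apart. HOXA11, a gene of limb and uterine development, had spots of 868 and 856 against 951 and 874. The arrays did not overlap but all 4 values lay close together, and the log2 ratio was -0.13 with an SD of 0.07. Scaled to the spike-in RNA, the ratio became 0.01, so its direction is not settled.
HOXA13, a gene of digits and the urogenital tract, had spots of 54.2 and 19.3 in the siHOTAIR culture against 19.2 and 8.44 in the siGFP culture. The software called 1 of these 4 spots well above background. The dim side was therefore raised to the lowest signal called well above background on that array, 28.6 for siGFP, which gave a bound of 0.13 on the log2 scale. The siHOTAIR side stayed at the mean of its spots, 32.4, below the lowest such signal on its own array, 37.3. The bound is therefore not a firm one. Both HOXA13 spots lay in the first rows. With the value table of the series and a floor of 10 this bound was -0.17 on the log2 scale, so the direction of HOXA13 is not settled.

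Of the members measured on both arrays, the HOXB cluster held the one with the lowest ratio, HOXB8, and 2 of the 4 that were at least 1.5-fold higher. HOXB8, known for holding myeloid progenitors in an immature state, had 1 spot, which read 1058 in the siHOTAIR culture against 1929. The log2 ratio was -0.91, a 1.88-fold difference, with a measurement SD of 0.09 and an error of 0.20 by the scanner software's own estimate. The spot lay in row 355, outside the first rows that 1 setting left out. Over 9 other settings the ratio ran from -0.93 to -0.77, the last with scaling to the spike-in RNA. HOXB8 had no second spot or probe to set it against.
HOXB5 and HOXB3 were higher on both of their spots. HOXB5, a gene of gut innervation and vessels, had spots of 3550 and 3433 in the siHOTAIR culture against 2117 and 1978 in the siGFP culture. The arrays did not overlap, and the log2 ratio was 0.72, a 1.65-fold difference, with a measurement SD of 0.06. HOXB3, a gene of the hindbrain and of blood progenitors, had spots of 343 and 318 against 183 and 187. The arrays did not overlap here either, and the log2 ratio was 0.79, a 1.73-fold difference, with an SD of 0.12. Of the spots of both genes, 1 of HOXB3 lay in the first rows. Without it the log2 ratio of HOXB3 was 0.72.

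The remaining HOXB genes differed by less than 1.2-fold or were near background. HOXB2, a hindbrain gene, was read by 2 probes. One had spots of 16460 and 17580 against 13552 and 15258 (log2 ratio 0.20) and the other 1 spot of 1239 against 1056 (log2 ratio 0.18). The 2 probes differed by 0.01, less than the SD of 0.11 of that difference. HOXB4, which expands blood stem cells when overexpressed, had spots of 2092 and 2026 against 1751 and 1790 and a log2 ratio of 0.17. HOXB6, a gene of the trunk, had spots of 19312 and 20074 against 16852 and 15338 and a log2 ratio of 0.25.
HOXB13, best known as a marker of the prostate, had spots of 13640 and 13850 against 12237 and 11257 and a log2 ratio of 0.18. It was thus well above background in this lung cancer line on both arrays. HOXB9, a gene of the thoracic skeleton, had spots of 7627 and 8687 against 8375 and 9434, and its log2 ratio was -0.17 with an SD of 0.05. The spots of the arrays overlapped, although each of the spots was lower on the #1 siHOTAIR array at its own place.
HOXB7 gave an unclear reading. Its spots had signals of 9.38 and 32.6 in the siHOTAIR culture against 51.5 and 34.1 in the siGFP culture, and 1 of the 4 was well above background. At their own level the mean log2 ratio was -1.31, with -2.50 from one spot and -0.11 from the other. With the dim side raised to 37.3, the lowest signal called well above background on the #1 siHOTAIR array, HOXB7 was at least 1.16-fold lower. With the value table of the series this bound was 0.11 on the log2 scale.

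**Figure D2:**
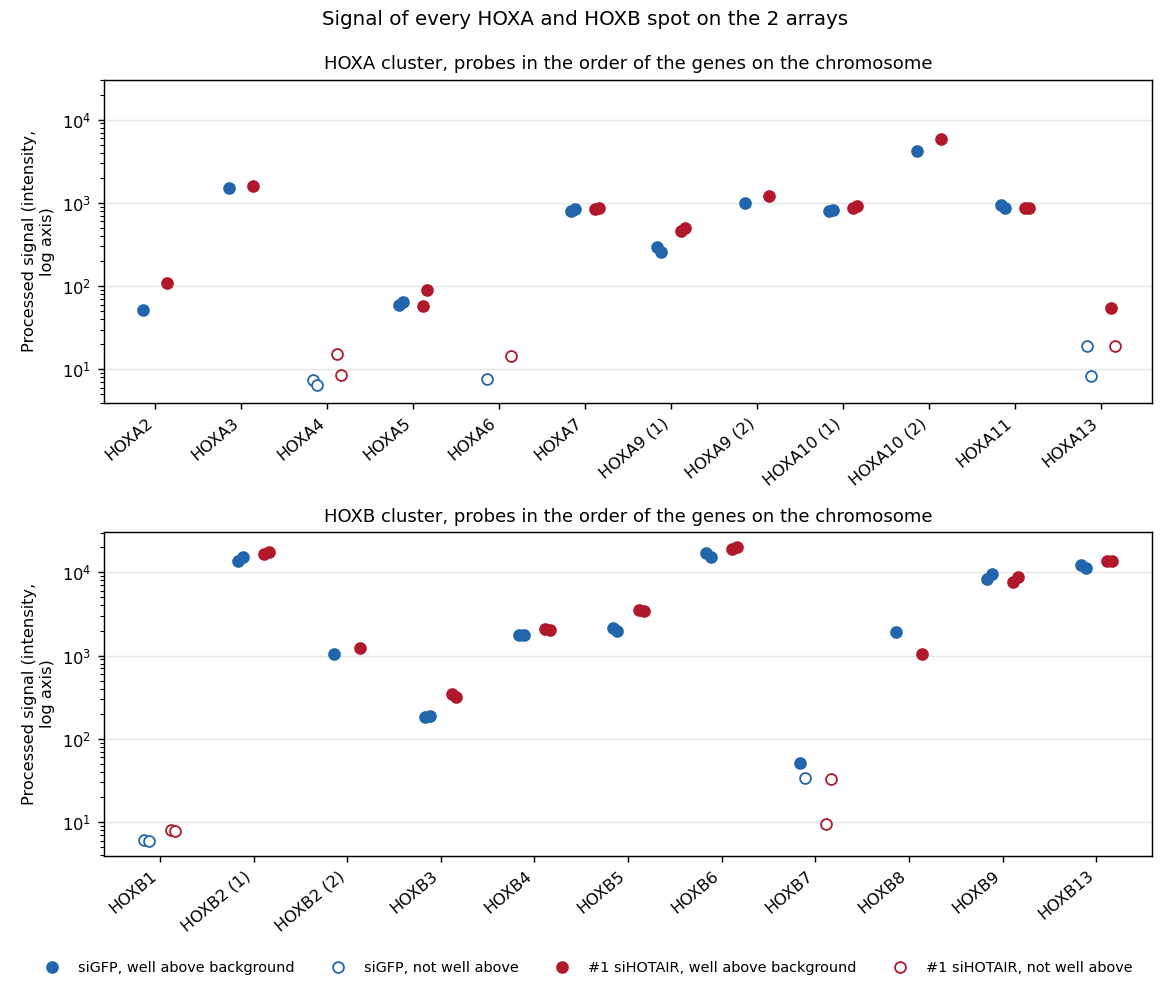
Processed signal of every spot (vertical log axis) for the HOXA and HOXB probes in the order of their genes on the chromosome (horizontal axis), with siGFP in blue and #1 siHOTAIR in red and open circles for spots not well above background. Levels of different probes are not comparable. HOXB8 is lower and HOXB3, HOXB5 and the first HOXA9 probe are higher in red with no overlap, whereas HOXA7 and HOXA11 lie close together.

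Among the TALE cofactors no probe reached 1.5-fold, and the median log2 ratio of the 8 probes compared, all measured on both arrays, was 0.10, with 5 of 8 above 0. PBX2, a DNA-binding partner of HOX proteins, had spots of 420 and 405 in the siHOTAIR culture against 520 and 491 in the siGFP culture. The arrays did not overlap, and the log2 ratio was -0.34 with a measurement SD of 0.08, the largest difference of the family in relation to its SD. PBX3 had 2 probes with 1 spot each. One read 175 against 187, a log2 ratio of -0.15, and the other 145 against 115, a ratio of 0.28, and the 2 differed by 1.46 times the SD of their difference. PBX4 read 175 against 168, a log2 ratio of 0.02.
MEIS2, which binds DNA together with PBX and HOX proteins, had spots of 1517 and 1351 against 1226 and 1180 and a log2 ratio of 0.21. MEIS3 had 1 spot of 86.2 against 73.0, a log2 ratio of 0.19 within its SD of 0.31, and MEIS1, the best known partner of HOXA9 in leukaemia, was not detected on either array. PKNOX1, which stabilizes PBX proteins, had spots of 904 and 922 against 789 and 762 and a log2 ratio of 0.19. TGIF1 had spots of 126 and 164 against 162 and 159, which overlapped, and a log2 ratio of -0.20 with an SD of 0.15.

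**Figure D3:**
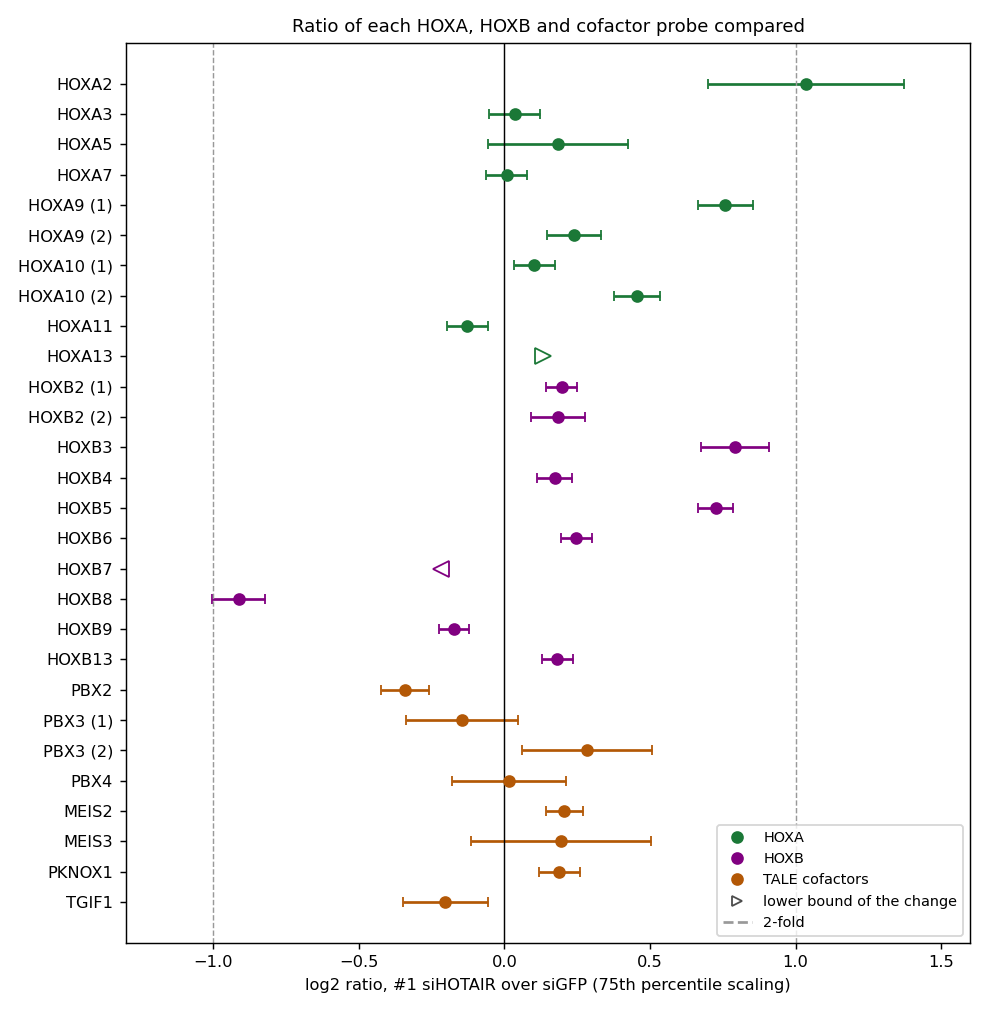
Log2 ratio of #1 siHOTAIR over siGFP (horizontal axis) for the 28 member probes compared, with bars of 1 measurement SD from repeated spots and open triangles for bounds of probes well above background on 1 array. Numbers in brackets tell probes of a gene apart, and dashed lines mark 2-fold. HOXA2 is at 1.04, HOXB8 at -0.91, and the cofactors lie between -0.34 and 0.28.

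In the HOXB cluster the log2 ratio went from 0.19 for HOXB2 to 0.79 for HOXB3, 0.17 for HOXB4, 0.72 for HOXB5 and 0.25 for HOXB6. These steps between neighbours were 0.48 to 0.62 in size, with SDs of 0.08 to 0.13. The 2 probes of HOXA9 differed by 0.52 and those of HOXA10 by 0.35 in size, so steps of this order also occurred between probes of 1 gene and are given as a description. HOXB8 and its neighbour HOXB9 differed by 0.74 with an SD of 0.10, and both were lower in the siHOTAIR culture, whereas HOXB13 at the far end was higher. In the HOXA cluster HOXA2 at 1.04 was followed by HOXA3 at 0.04, and the SD of their difference was 0.35.
In 4 paralogue groups both the HOXA and the HOXB gene were measured on both arrays. The ratio was higher for the HOXA gene in 2 of them, by 0.85 for HOXA2 over HOXB2 and by 0.67 for the mean of the HOXA9 probes over HOXB9. It was higher for the HOXB gene in the other 2, HOXB3 over HOXA3 and HOXB5 over HOXA5, where the difference of HOXA minus HOXB was -0.76 and -0.54. The SDs of these differences were 0.34, 0.09, 0.15 and 0.25 in the order given. They rest on 1 to 3 spots a gene.

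Other genes of the same families and around the clusters were read from lists. Among further TALE genes, TGIF2, IRX3 and IRX5 were detected on both arrays, with log2 ratios of -0.11, 0.03 and 0.08. Of 13 noncoding or small genes within the clusters, 2 had a matched probe. HOXA11-AS, antisense to HOXA11, read 2901 against 2913, a log2 ratio of -0.05, beside the -0.13 of HOXA11, and PRAC1, next to HOXB13, read 6075 against 5140, a log2 ratio of 0.20 beside the 0.18 of HOXB13.

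Of 7 genes flanking the clusters, 6 were detected on both arrays and 1 was at least 2-fold lower. Over the whole array, 3.03% of the probes measured on both arrays reached 2-fold either way. The flanking gene at 2-fold was SKAP1, an adaptor of T cell signalling, the protein-coding gene next to HOXB1. Its probe had 10 spots on each array, which ran from 792 to 919 with a median of 865 in the siHOTAIR culture and from 1874 to 2129 with a median of 2003 in the siGFP culture. The spots of the arrays did not overlap, and their log2 ratios ran from -1.36 to -1.18, with a mean of -1.26. Each of the 10 spots was lower in the siHOTAIR culture. HOXB1 was not detected, and HOXB2, the nearest member detected, was at 0.20 and 0.18. SKAP2, a related adaptor at the same end of the HOXA cluster, read 1279 against 1693, a log2 ratio of -0.45 with an SD of 0.06, while EVX1, a homeobox gene at the other end, read 9030 against 7893, a ratio of 0.15. HIBADH, an enzyme of valine breakdown and the gene beyond EVX1, read 233 against 326, a log2 ratio of -0.53 with an SD of 0.16. Of the 6 flanking genes measured on both arrays 2 had a ratio above 0, and the median of the 6 was -0.28. Over all probes measured on both arrays, 54.2% had a ratio above 0 and the median was 0.03.
Of 24 regulators of HOX genes and partners of their products, 19 were detected on both arrays, by 30 probes with a median log2 ratio of 0.10. Only 1 of the 30 probes reached 2-fold either way, against 3.03% of all probes measured on both arrays. It belonged to PSIP1, a chromatin-binding cofactor of KMT2A, with spots of 649 and 709 against 234 and 377 and a log2 ratio of 1.15. The spots of the arrays did not overlap. A second PSIP1 probe, for another transcript, had spots of 4480 and 4651 against 3784 and 3818 and a log2 ratio of 0.22. KMT2A, a methyltransferase that maintains HOX expression, was read on both arrays by 3 of its 4 probes, with log2 ratios of 0.13, 0.16 and 0.46.

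**Figure D4:**
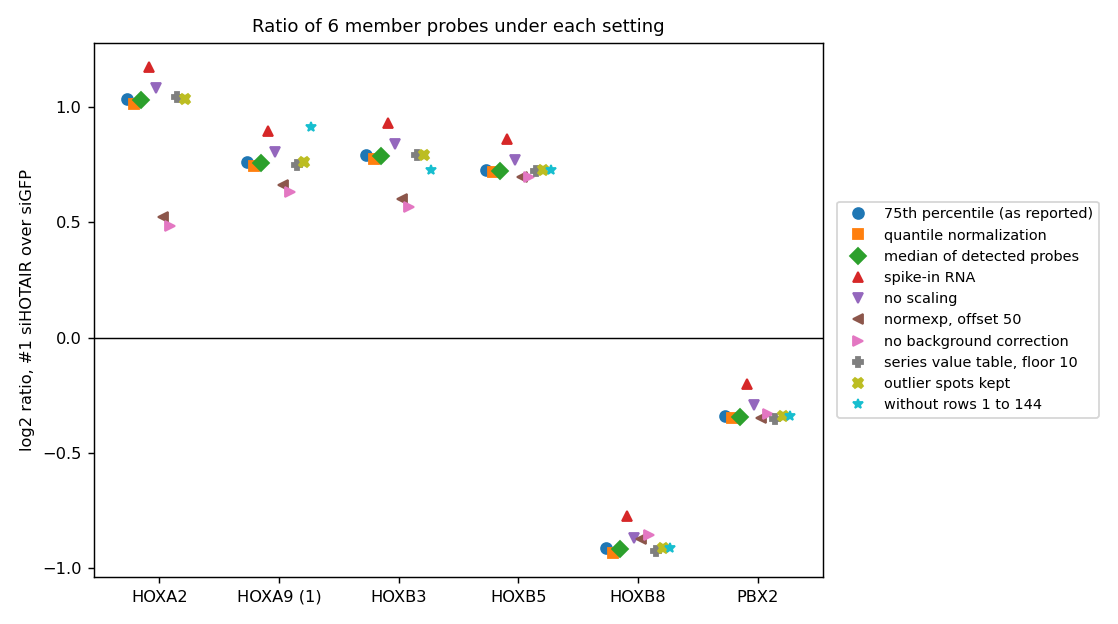
Log2 ratio of #1 siHOTAIR over siGFP (vertical axis) of 6 member probes (horizontal axis) as reported and under 9 other settings of scaling, background correction and spots, 1 marker a setting. HOXB8 stays between -0.93 and -0.77 and HOXB5 between 0.70 and 0.86, while HOXA2, a dim spot, runs from 0.48 to 1.17 and has no value without the first rows.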

How the data were processed

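One-colour Agilent arrays, 1 per condition, measured the RNA of SBC-3 cells given #1 siHOTAIR or siGFP. The authors labelled total RNA with Cy3, hybridized it and deposited the output of Feature Extraction 10.10.1.1, in which the processed signal is an intensity after background subtraction and detrending, not normalized between arrays. The deposited flags, coded as other values, mark spots well above background, saturated spots and outliers. The deposited value table of the series equals the background-subtracted intensity of the scanner output (largest difference 0). Processed signals were divided by the array's 75th percentile before log2 was taken. Outlier spots were dropped and the spots of each probe averaged. Comparison required 50% or more of the spots to be called well above background in 1 condition or both. For a probe that was dim in 1 condition, that side was set to the lowest signal well above background on that array where a bound is given. The measurement SD was the median SD of probes with 10 spots, in 6 levels of signal, interpolated. Accessions were matched without versions to RefSeq genes of GRCh38.p14. That build was used for names, gene order and the upstream sequences with their places and motif matches. It was not used to place probes, since the array design names hg19.

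The number of arrays limits the precision. Every member with a matched probe was named, and members and lists were chosen with earlier results of these data known. The 2-fold threshold was that of the methods, and their P-value and ontology steps were not repeated. The files hold no mean signal, so the median signal was used for normexp (limma 3.58.1, R 4.3.3, offset 50) and for the signal without background correction. Some listed genes that are not members are not reported here. The calling was tested on simulated data. Python 3.11.15 and pandas 2.3.3 were used.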

Additional observations from a re-analysis of the deposited data

How the results depend on the processing

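The counts of 2 higher and 1 lower member probe rest on dim signals and on the first rows of the array. They were 1 and 0 for probes well above background on both arrays and with dim signals at their bound, 0 and 0 with normexp, without background correction and at 3-fold, and 5 and 2 at 1.5-fold. With spots in the first rows left out, 0 members were at least 2-fold higher. The median log2 ratio of the HOXA probes was 0.21 over the 10 probes compared, 0.35 with no filter, 0.35 with scaling to the spike-in RNA and 0.12 with normexp. That of the HOXB probes was 0.18 and was 0.32 with the spike-in RNA. That of the cofactors was 0.10, 0.24 with the spike-in RNA, 0.19 with no filter and 0.02 with the brightest probe of each gene, and it stayed above 0 under all settings run. Of the 28 member probes compared, 24 kept the sign of their value under every setting that gave one, and 4 (HOXA7, HOXA11, HOXA13 and HOXB7) did not. For HOXA13 and HOXB7 this value was the bound, and a bound past 0 is uninformative and does not show a reversal. At their own level their log2 ratios were 1.30 and -1.31. The causes were not tested. No paired analysis was possible because each condition had 1 array, and for the same reason no array could be left out.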
